A study of Homo sapiens with 8 samples.

Results

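Apolipoproteins are the protein parts of lipoproteins, the particles that carry cholesterol, triglyceride and phospholipid through the blood. Hepatocytes make most of them: APOB is lipidated in the endoplasmic reticulum and leaves the cell as very low density lipoprotein, APOA1 and APOA2 form the scaffold of high density lipoprotein, and the smaller members move between particles and set how lipases and receptors treat them. HepG2, an established human liver cancer line, is widely used as a model because it is known for secreting apolipoproteins and albumin. The genes described here were a list of 8 secreted apolipoproteins: APOA1, APOA2, APOB, APOC1, APOC3, APOE, APOH and APOM. They were picked by name under a rule that used no measured value, though earlier results of these data were known. All 8 were found among the 60718 genes of the input count table, and 1 of them, APOM, was found among the 11244 genes of the table of translation efficiency (TE table).

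The 8 libraries came from cells labelled HepG2, either with METTL5 intact (METTL5-WT) or with part of METTL5 excised by CRISPR-Cas9 (METTL5-KO). The METTL5 enzyme places N6-methyladenosine on 18S ribosomal RNA. All plates, METTL5-WT included, received cycloheximide at 100 µg/mL for 7 min, which stalls ribosomes on mRNA, and a portion of each lysate was kept as input RNA while the rest was digested with micrococcal nuclease to leave ribosome-protected fragments (RPF). Each of the 4 groups (METTL5-WT input, METTL5-WT RPF, METTL5-KO input, METTL5-KO RPF) had 2 replicates. Per the study, cells of either genotype were grown from single isolated clones, so a difference between clones cannot be told apart from genotype, and p-values measure the spread between these lysates only.

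Input libraries held 10710226 to 15307257 counts over all genes of the count table. Over the genes of the TE table alone, RPF libraries held 3970779 and 4592443 reads in METTL5-WT against 8626705 and 9255921 in METTL5-KO. Low genes were therefore least precise in METTL5-WT RPF. METTL5 itself followed the labels, with 490 and 542 input counts in METTL5-WT against 208 and 151 in METTL5-KO, and 158 and 226 RPF reads against 41 and 21. The 2 METTL5-KO input libraries had the largest chi-square between replicates, 15.84 per gene against 3.165 to 5.676 in the other pairs. Taken on raw reads, this chi-square grows with depth, so it does not rank the pairs by spread alone.

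The labelled cell type was checked before the apolipoproteins were read. Of 11 markers of the hepatocyte lineage (ALB, AFP, TTR, SERPINA1, FGA, FGB, FGG, TF, AHSG, RBP4 and HNF4A), 10 had at most 3 counts in every input library, and TTR, SERPINA1, FGB and AHSG had 0 in all 4. Albumin (ALB) had 1 count in METTL5-KO replicate 2 and 0 in the other libraries. The exception was alpha-fetoprotein (AFP), with 0 and 0 counts in METTL5-WT against 5 and 9 in METTL5-KO. The 11 markers summed to 7 and 3 counts in METTL5-WT and to 6 and 13 in METTL5-KO. These values go against the label as far as the hepatocyte lineage is concerned, and the libraries are called here by their label, that is, libraries labelled HepG2.

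Markers of other cell types were uneven. All 5 leukocyte markers had at most 3 counts in every library (summed 0 to 3), with CD163 at 0 throughout, and the 4 endothelial markers summed to 7 to 15 counts. The 7 stellate cell and fibroblast markers summed to 3428 to 4427 counts, of which COL3A1 gave 2536 to 3317, while COL1A2 had at most 1 count and LRAT 0. Among 3 cholangiocyte markers, KRT7 had 8808 to 12259 counts, KRT19 had at most 1, and SOX9 had 6 and 8 in METTL5-WT against 50 and 63 in METTL5-KO (input log2 fold change 2.63 ± 0.47, SE, adjusted p = 0.000207 in edgeR). Of the 7 tested in input, 2 rose (SOX9 and COL1A1, at 0.44 ± 0.14, SE) and 2 fell (COL3A1, at -0.51 ± 0.11, and PDGFRB, at -0.91 ± 0.28, SE), beside 11.8% and 10.6% of all genes tested, with edgeR adjusted p = 0.0225, 0.00192 and 0.0198 for the last 3. The COL1A1, COL3A1 and PDGFRB calls were each lost in some fits that left out 1 input library, and the SOX9 call was kept in each. The part of these markers in the values below was not tested.

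The members' input counts were read next. The high density lipoprotein scaffold APOA1 (ENSG00000118137, hg38 chromosome 11, 116835751 to 116837622, minus strand) had 0 and 0 counts in METTL5-WT against 0 and 2 in METTL5-KO. Its partner on the same particles, APOA2 (ENSG00000158874, chromosome 1, 161222292 to 161223631, minus strand), had 0 and 0 counts in METTL5-WT against 1 and 2 in METTL5-KO. Both genes were therefore at or under the floor of 3 counts, the limit that a count of 0 allows, in every library.

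APOB (ENSG00000084674, chromosome 2, 21001429 to 21044073, minus strand), the large structural protein of very low density and low density lipoprotein, had 4 and 2 counts in METTL5-WT against 0 and 0 in METTL5-KO. Its 4 counts in METTL5-WT replicate 1 were the only value above the floor among the 28 values of the 7 members other than APOM. Since the METTL5-WT mean lay at the floor and METTL5-KO at 0, no fold is given. APOB has the longest mRNA of the list, 14828 bases of exon, so few counts over that length are a very low level.

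The exchangeable apolipoproteins were as low. APOC1 (ENSG00000130208, chromosome 19, 44914247 to 44919349, plus strand), an inhibitor of cholesteryl ester transfer protein, had 0 and 1 counts in METTL5-WT against 0 and 1 in METTL5-KO. APOC3 (ENSG00000110245, chromosome 11, 116829706 to 116833072, plus strand), an inhibitor of lipoprotein lipase, had 0 counts in all 4 libraries. APOE (ENSG00000130203, chromosome 19, 44905791 to 44909393, plus strand), the ligand through which remnant particles bind their hepatic receptors, had 1 and 0 counts in METTL5-WT against 3 and 1 in METTL5-KO. APOH (ENSG00000091583, chromosome 17, 66212033 to 66256525, minus strand), the phospholipid-binding beta-2-glycoprotein of plasma, had 0 and 1 counts in METTL5-WT against 0 and 0 in METTL5-KO. The genotypes overlapped for APOC1, APOC3, APOE and APOH.

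APOM (ENSG00000204444, chromosome 6, 31652416 to 31658210, plus strand), the lipocalin that carries sphingosine-1-phosphate on high density lipoprotein, was the member above the floor in every library. It had 40 and 29 input counts in METTL5-WT against 55 and 52 in METTL5-KO, which is 176 of the 195 input counts of the 8 members. Per kilobase of exon and per 1000000 counts, the APOM level was 2.88 and 2.19 in METTL5-WT against 3.51 and 2.75 in METTL5-KO, so the groups overlapped. Of the 11244 genes in the TE table, 31.9% had both METTL5-KO input values above both METTL5-WT values. In the unit of the APOM level above, means over the 4 libraries were 0.0554 for APOA2, 0.0454 for APOE, 0.0322 for APOC1, 0.0298 for APOA1, 0.0175 for APOH, 0.00916 for APOB and 0 for APOC3. That order below APOM is not resolved, since 3 counts per library correspond to 0.207 to 0.296 for APOA2 and to 0.0132 to 0.0189 for APOB.

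**Figure D1:**
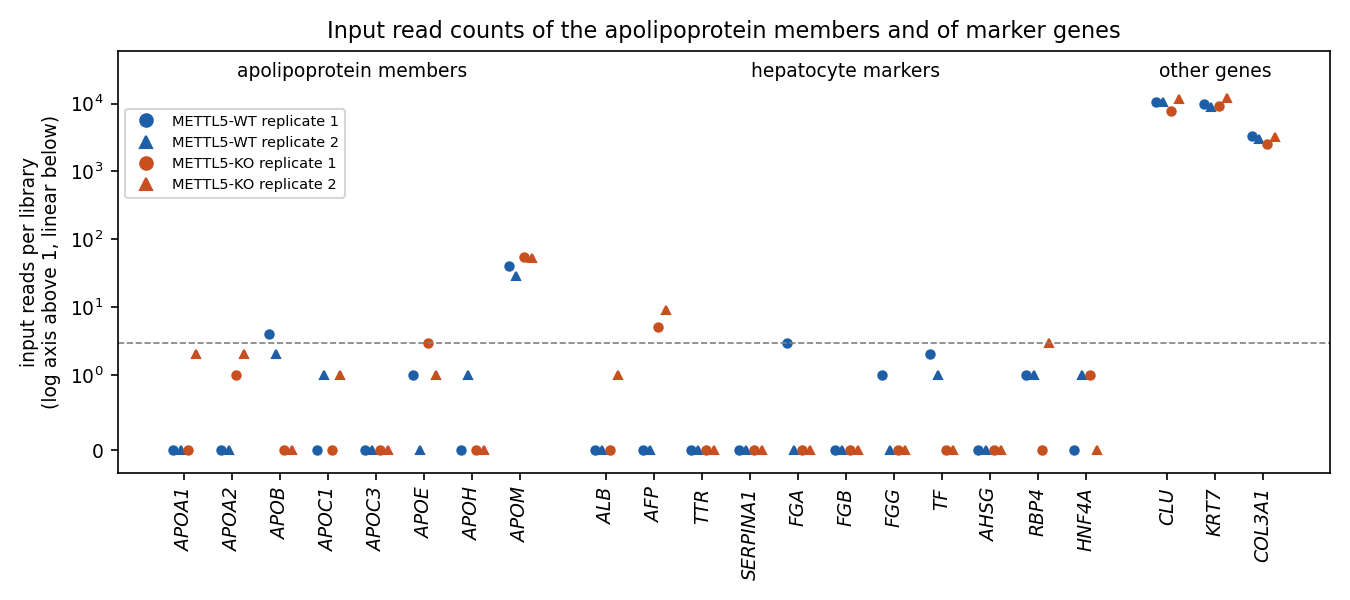
Input read counts (y axis, logarithmic above 1 and linear below) of the 8 members, 11 hepatocyte markers and 3 other genes in each input library, with the floor of 3 counts dashed. APOM sits between 29 and 55 counts, the other members at 0 to 4, AFP reaches 9, and CLU, KRT7 and COL3A1 lie between 2536 and 12259.

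The share of all reads taken by the list was small in both genotypes. Of every 1000000 input counts over all genes of the count table, the 8 members together took 4.01 and 3.08 in METTL5-WT against 4.66 and 3.79 in METTL5-KO (means 3.55 ± 0.659 and 4.22 ± 0.613, SD, n = 2). Wilson 95% intervals, for counting error only, ran from 3.00 to 5.37 and from 2.19 to 4.33 in METTL5-WT. In METTL5-KO the intervals ran from 3.61 to 6.01 and from 2.93 to 4.90. The intervals of the genotypes overlapped, and a difference in share was not tested. Without APOM the 7 others took 0.410 ± 0.0513 in METTL5-WT and 0.354 ± 0.0540 in METTL5-KO (SD, n = 2). In bulk RNA, fewer cells of a type and less RNA per cell cannot be told apart, so a count of 0 describes the culture as a whole.

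Of the 8 members, only APOM passed the filter on low counts and was tested in input, and it was not called in either direction, beside 22.4% of the 14054 genes tested (log2 fold change 0.29 ± 0.35, SE, adjusted p = 0.606 in edgeR). Without the filter, with 31373 genes tested, APOC3 could not be tested and 0 of the other 7 members were called by edgeR, beside 9.68% of all genes, with 0 at an unadjusted p under 0.05. The smallest of their adjusted p-values was 0.345, for APOB. The TE table lists a gene only where it had at least 1 read in every library, and each of the 7 members other than APOM had 0 counts in at least 1 input library, so their footprints and TE were not analysed here.

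The members' levels were set against the genes around them, which checks whether the regions were counted at all. Of the 12 nearest coding genes on either side that are not apolipoproteins, 9 had at least 100 counts in every input library and 2 (FCER1G and TDRD15) had 0 in all. TOMM40, the mitochondrial import channel gene that ends 2.1 kb before APOE, had 710 and 633 counts in METTL5-WT against 959 and 1303 in METTL5-KO. SIK3, 5.78 kb after APOA1, had 381 and 328 counts in METTL5-WT against 496 and 549 in METTL5-KO. TOMM40L, 2.31 kb after APOA2, had 371 and 368 in METTL5-WT against 477 and 724 in METTL5-KO. Other neighbours were low: FCER1G lies 1.59 kb before APOA2, TDRD15 79.9 kb after APOB, and CEP112, 19.9 kb before APOH, had 8 to 26 counts. Each member had a neighbour with at least 100 counts in every input library on at least 1 side. For APOB that neighbour, LDAH, lay 178 kb away, so it says little about the APOB region itself. Across the 20328 genes with a coding sequence, 35.1% were at or under the floor in every input library, and APOM lay at percentile 21.5 of the total counts of those above it.

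Promoter windows of 250 bases before the RefSeq start (GRCh38.p14) were searched on both strands for letters resembling the binding motif of the liver factor HNF4A. The APOM window is shown because it held a match to this motif, marked in capitals.

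APOM, chr6:31655644-31655893, plus strand: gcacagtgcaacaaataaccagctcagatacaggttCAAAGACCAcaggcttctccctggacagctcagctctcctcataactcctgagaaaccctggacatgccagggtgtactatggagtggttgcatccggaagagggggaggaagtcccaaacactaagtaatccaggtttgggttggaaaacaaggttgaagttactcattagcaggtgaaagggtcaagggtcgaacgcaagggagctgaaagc

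The APOM window held 1 match to CAAAGNNCA, the core of an HNF4-type site, which 4.44% of 35116 windows of the same length hold. The windows of APOA2, APOC1, APOE and APOH held no match to it, and those of APOA1, APOB and APOC3 were not analysed here. A match is a description of letters. The factor's own transcript was near absent, since HNF4A had 0 and 1 counts in METTL5-WT against 1 and 0 in METTL5-KO.

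Footprints could be read for APOM. It had 10 and 4 RPF reads in METTL5-WT against 34 and 43 in METTL5-KO. Scaled by the authors' size factors, the RPF values were 23.8 and 8.02 in METTL5-WT against 41.0 and 47.9 in METTL5-KO, and the groups did not overlap. Over the 11244 genes of the TE table, 32.4% had both METTL5-KO RPF values above both METTL5-WT values. In reads per 1000000 reads of the TE table genes (RPM), APOM took 1.69 ± 1.16 of the RPF reads in METTL5-WT and 4.29 ± 0.498 in METTL5-KO (SD, n = 2).

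The RPF log2 fold change of APOM, on the log2(value + 1) scale, was 1.60 ± 0.47 (SE, adjusted p = 0.0159 in limma), and edgeR on the recovered reads gave an adjusted p of 0.0269. In this comparison 16.2% of 11240 genes were called higher, and a call of the single member that could be tested is no result about the list. The call rested on few METTL5-WT reads. It was lost without METTL5-WT replicate 2 (0.87, limma adjusted p = 0.146), without METTL5-KO replicate 1 (1.71, limma adjusted p = 0.115) and without METTL5-KO replicate 2 (1.49, limma adjusted p = 0.161). Without METTL5-WT replicate 1 the change was 2.33. An exact two-sided permutation test of the 4 RPF values gave p = 0.333, the smallest that 2 against 2 allows, and p = 0.667 for the input values.

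TE, the RPF change beyond the input change, was 1.30 ± 0.66 for APOM (SE, adjusted p = 0.254 in limma) and was not called, nor was it by edgeR on the recovered reads (adjusted p = 0.257). The background of TE calls was 4.79%. In a single lysate, RPF reads per kilobase of coding sequence over input reads per kilobase of exon put APOM at percentiles 24.2 and 6.06 of 11224 genes in METTL5-WT and at 39.8 and 58.2 in METTL5-KO. The log2 of that ratio was 0.35 ± 0.82 in METTL5-WT and 1.72 ± 0.40 in METTL5-KO (SD, n = 2). METTL5-WT replicate 2, the library with 4 reads, was lowest.

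**Figure D2:**
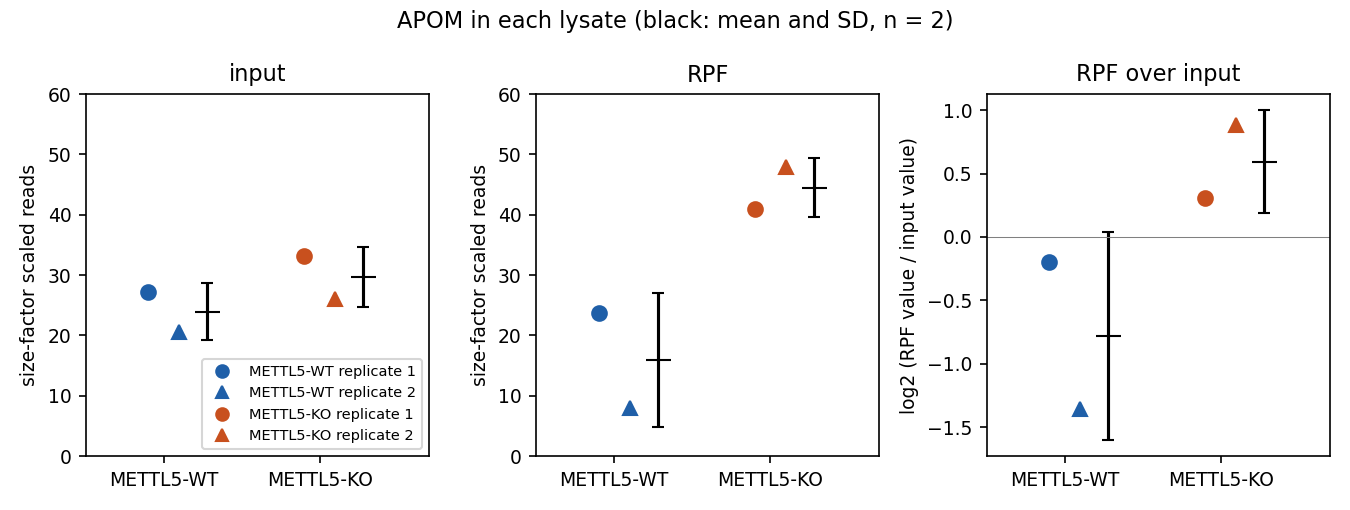
APOM in each lysate: input and RPF values in size-factor scaled reads and the log2 of their ratio (y axes), with the mean and SD of 2 replicates in black. The RPF values of METTL5-KO (41.0 and 47.9) lie above those of METTL5-WT (23.8 and 8.02), while the input values (27.2 and 20.6 against 33.2 and 26.1) overlap.

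The annotation limits what the APOM counts can say. GENCODE places 2 of its 3 coding transcripts at starts 3477 and 3478 bases upstream of the third, and gene-level counts cannot tell them apart. APOM overlaps BAG6 on the opposite strand, which had 3073 to 4973 input counts. The input counting used strand, but whether the RPF counting did is not given in the sources used here. The APOM region also has alternate haplotype copies in hg38, and whether these were part of the authors' index is not given either. The gene outside the list whose profile over the 8 libraries was nearest to that of APOM was SMIM14, a small membrane protein gene, at a Euclidean distance of 0.711 among 7679 candidates. SMIM14 had 75 and 44 RPF reads in METTL5-WT against 251 and 261 in METTL5-KO, not scaled for the deeper METTL5-KO RPF libraries. It was picked by its values in these same libraries, so its likeness to APOM is a description only.

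Other genes with apolipoprotein names, 18 in all, divided into silent plasma apolipoproteins and counted genes. Of the 18, 11 were at or under the floor in every input library, beside 35.1% of all genes with a coding sequence. Counts were 0 throughout for 9 of the 11: APOA4, APOA5, APOC2, APOC4, APOD, APOF, APOL4, LPA and SAA4. The acute-phase genes SAA1 and SAA2 had 1 count each. The 7 counted genes were clusterin (CLU, also called apolipoprotein J, a secreted chaperone), APOL1, APOL2, APOL3 and APOL6 of the apolipoprotein L family, which are known to be induced by interferon, and APOO and APOOL, subunits of the mitochondrial MICOS complex. In input, 4 of the 7 rose and 2 fell, beside 11.8% and 10.6% of all genes tested, with a median log2 fold change of 0.56. Of these 6 calls, 2 were left without METTL5-WT replicate 1 and 1 without METTL5-WT replicate 2, and DESeq2 called 3 genes of the list.

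CLU had 10409 and 10606 input counts in METTL5-WT against 7797 and 11535 in METTL5-KO, or 1023 ± 43.8 and 730 ± 103 RPM (SD, n = 2). Its input level fell by 0.49 on the log2 scale (SE 0.12, adjusted p = 0.00487 in edgeR). Its RPF change was -0.25 ± 0.12 (SE, adjusted p = 0.110 in limma) and was not called. CLU took 1947 ± 132 RPM of the RPF reads in METTL5-WT and 1467 ± 41.6 in METTL5-KO (SD, n = 2), and ranked between percentiles 88.8 and 93.9 of footprints per message in the 4 lysates. The RPF fall of CLU was called with quantile normalization and with total count scaling.

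The 4 counted apolipoprotein L genes rose in METTL5-KO input. APOL6 had 127 and 170 counts in METTL5-WT against 579 and 690 in METTL5-KO, with an input log2 fold change of 1.73 ± 0.17 (SE, adjusted p = 4.06e-08 in edgeR), and its RPF change was also 1.73 ± 0.23 (SE, adjusted p = 3.71e-05 in limma). APOL1, the trypanolytic factor of serum, had 15 and 9 input counts in METTL5-WT against 51 and 39 in METTL5-KO, a change of 1.56 ± 0.46 (SE, adjusted p = 0.0170 in edgeR). APOL1 had 4 and 10 RPF reads in METTL5-WT against 37 and 20 in METTL5-KO, and its RPF change was not called (1.13 ± 0.52, SE, adjusted p = 0.115 in limma). APOL2 had 672 and 577 input counts in METTL5-WT against 997 and 1375 in METTL5-KO, a change of 0.56 ± 0.13 (SE, adjusted p = 0.00223 in edgeR), and its RPF change was 1.13 ± 0.12 (SE, adjusted p = 3.90e-06 in limma). APOL3 had 7 and 13 input counts in METTL5-WT against 31 and 40 in METTL5-KO, with an adjusted p of 0.0399 by edgeR. The APOL3 call was lost when any 1 input library was left out, the APOL1 and APOL2 calls when some were, and the APOL6 call was kept in all 4 such fits.

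The MICOS subunits were counted in every library. APOOL had 701 and 664 input counts in METTL5-WT against 678 and 668 in METTL5-KO, and 33 and 48 RPF reads in METTL5-WT against 126 and 167 in METTL5-KO. Its input level fell by 0.37 on the log2 scale (SE 0.13, adjusted p = 0.0487 in edgeR), its RPF rose by 0.95 ± 0.19 (SE, adjusted p = 0.00111 in limma) and its TE rose by 1.30 ± 0.26 (SE, adjusted p = 0.0123 in limma and 0.00422 in edgeR). The input call was lost with RLE factors, without the filter, in DESeq2, without either METTL5-WT replicate and without METTL5-KO replicate 2. The TE rise was the only TE call among the 6 apolipoprotein-named genes tested besides APOM, beside 2.7% of genes called higher in TE. The call was lost without METTL5-WT replicate 1 (1.15) and without METTL5-KO replicate 2 (1.01). With a single prior variance in place of the trend it was lost as well (limma adjusted p = 0.147). APOO had 29 and 31 RPF reads in METTL5-WT against 78 and 91 in METTL5-KO, a change of 0.57 ± 0.20 (SE, adjusted p = 0.0442 in limma) that edgeR did not call (adjusted p = 0.101) and that was lost in every fit without 1 lysate.

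**Figure D3:**
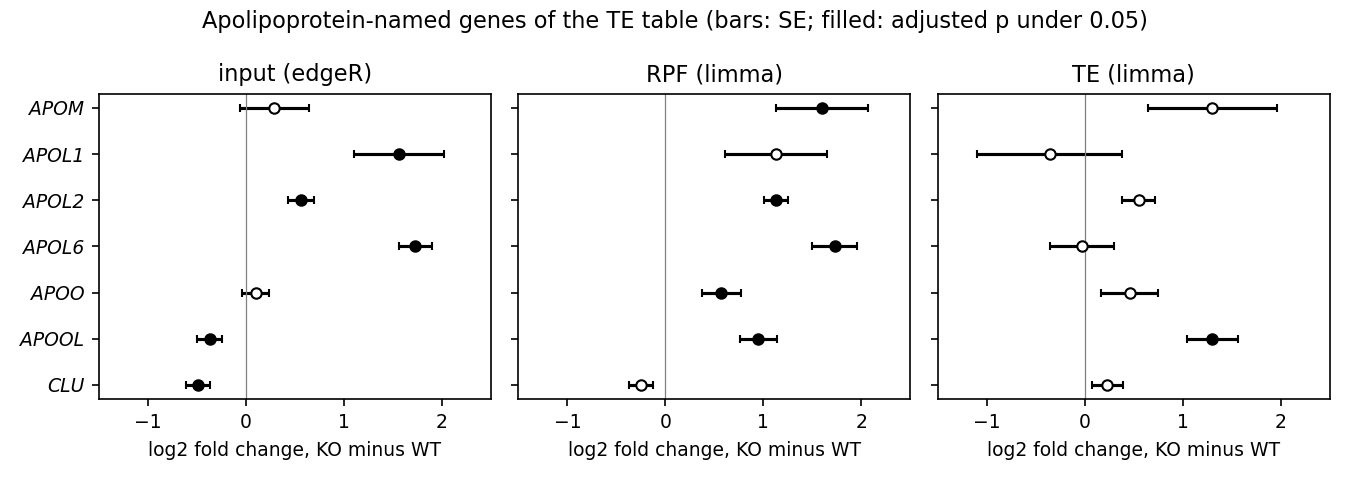
Log2 fold changes, METTL5-KO minus METTL5-WT, of the 7 apolipoprotein-named genes in the TE table (x axis) for input, RPF and TE, with SE as bars and filled points for an adjusted p under 0.05. APOL6 rose by 1.73 in input and in RPF with TE at -0.03, while APOOL was at -0.37 in input, 0.95 in RPF and 1.30 in TE.

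Genes known for loading lipid onto APOB were near 0, and general secretory genes were high. Of 24 genes for assembly and secretion, 4 were at or under the floor in every input library, beside 35.1% of all genes with a coding sequence. Of these 4, TM6SF2 and PLA2G12B, which support lipidation of APOB particles, had 0 throughout. CIDEB and PLIN2, lipid droplet proteins, had 1 count each. MTTP, the microsomal transfer protein that lipidates APOB, had 1 and 2 counts in METTL5-WT against 0 and 6 in METTL5-KO. The general folding and export genes were high. P4HB, the protein disulfide isomerase that pairs with MTTP, had 9837 to 12922 counts, and the lectin chaperone CANX had 16765 to 18749.

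In this list 1 of 19 genes tested rose in input and 5 fell, beside 11.8% and 10.6% of all genes tested, with a median log2 fold change of -0.19 beside a median of 0.00 over all genes. With either METTL5-WT replicate left out, the list held 2 calls, and without METTL5-KO replicate 1 it held 10. DGAT1, which makes triglyceride, rose by 0.55 ± 0.15 (SE, adjusted p = 0.0101 in edgeR). ARFRP1, a Golgi GTPase, changed by -1.09 ± 0.19 and the chaperone HSPA5 by -0.66 ± 0.12 (SE, adjusted p = 0.000211 and 0.000190 in edgeR). In RPF 3 rose and 3 fell, beside 16.2% and 13.1% of all genes, while 1 rose and 5 fell with total count scaling. The list held 3 RPF calls without METTL5-WT replicate 1, without METTL5-KO replicate 2, or with a single prior variance in place of the trend. Among the 3 RPF rises of the main fit were the COPII coat genes SEC24D (0.53 ± 0.15, SE, adjusted p = 0.0119 in limma) and SAR1B (0.50 ± 0.11, SE, adjusted p = 0.00235 in limma). ARFRP1 (-1.26 ± 0.22, SE) and HSPA5 (-0.43 ± 0.10, SE) were among its falls, with limma adjusted p = 0.000493 and 0.00479. In TE limma called 0 of 19, with 6 at an unadjusted p under 0.05, and edgeR called 0. DESeq2 called 2, as did limma with a replicate block on the lysate, and limma with libraries centred on their medians called 1.

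The receptors that take lipoproteins up were largely present. Of 17 receptors and transporters, 4 were at or under the floor, beside 35.1% of all genes with a coding sequence. Among the 4 was the cholesterol exporter ABCA1 (at most 1 count), while SCARB1, the receptor for high density lipoprotein, had 1747 to 2689 counts. In input 0 of 11 tested rose and 4 fell, beside 11.8% and 10.6% of all genes, and 7 were called without METTL5-KO replicate 1. The median log2 fold change was -0.01. VLDLR, a receptor for triglyceride-rich particles, had 504 and 546 counts in METTL5-WT against 279 and 314 in METTL5-KO, with an input log2 fold change of -1.18 ± 0.15 (SE, adjusted p = 1.93e-06 in edgeR). SORT1, a sorting receptor that binds APOB, had 2344 and 2260 counts in METTL5-WT against 1437 and 1720 in METTL5-KO, a change of -0.90 ± 0.11 (SE, adjusted p = 2.76e-06 in edgeR).

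In RPF 1 of 12 receptors and transporters rose and 5 fell, beside 16.2% and 13.1% of all genes. MYLIP, a ubiquitin ligase that degrades lipoprotein receptors, changed by 0.52 ± 0.16 (SE, adjusted p = 0.0208 in limma), a call lost in every fit without 1 lysate. LRP1, a large endocytic receptor for APOE-bearing remnants, changed by -1.29 ± 0.16 and VLDLR by -1.28 ± 0.19 (SE, adjusted p = 2.33e-05 and 9.27e-05 in limma). In TE limma, edgeR and DESeq2 called 0 of 12, with 1 at an unadjusted p under 0.05, and limma with total count scaling called 1.

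Of 13 genes that remodel lipoproteins in plasma, 6 were at or under the floor, beside 35.1% of all genes with a coding sequence. LIPC, ANGPTL8 and PON3, all known as liver products, had 0 counts throughout. Of the 4 tested in input, 2 fell, beside 10.6% of all genes: GPLD1, a phospholipase carried on high density lipoprotein (-0.55 ± 0.18, SE, adjusted p = 0.0290 in edgeR), and PCYOX1, an oxidase carried on lipoproteins (-0.45 ± 0.12, SE, adjusted p = 0.00936 in edgeR). Both calls were lost when either METTL5-WT replicate was left out, and the median of the 4 changes was -0.30. In RPF limma, edgeR and DESeq2 called 0 of 4, with 1 at an unadjusted p under 0.05, and limma called 1 with a single prior variance and 1 with total count scaling. In TE the same tools called 0 of 4, with 0 at an unadjusted p under 0.05.

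Part of the regulators known to act on apolipoprotein genes were near 0. Beside 35.1% of all genes with a coding sequence, 8 of the 22 were at or under the floor in every input library. Among them FOXA3, NR1H4 (the bile acid receptor), CREB3L3, and the APOB mRNA editing genes APOBEC1 and A1CF had 0 counts in all 4, and HNF4A and FOXA2 had at most 3. In input 4 of 12 tested rose and 1 fell, beside 11.8% and 10.6% of all genes. Of the 12, 3 were called without METTL5-WT replicate 2 and 9 without METTL5-KO replicate 1, and the median of the 12 changes was 0.30. PPARGC1A, a coactivator of fasting genes, had 352 and 396 counts in METTL5-WT against 809 and 979 in METTL5-KO (log2 fold change 0.90 ± 0.13, SE, adjusted p = 2.88e-05 in edgeR), and its RPF change was 1.48 ± 0.16 (SE, adjusted p = 4.52e-06 in limma). RXRA, the common partner of lipid-sensing nuclear receptors, rose by 0.73 ± 0.13 (SE, adjusted p = 0.000278 in edgeR). CEBPA, a hepatocyte and adipocyte factor, had 184 and 170 counts in METTL5-WT against 71 and 102 in METTL5-KO, a change of -1.40 ± 0.21 (SE, adjusted p = 4.00e-05 in edgeR).

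In RPF 2 regulators rose and 2 fell, beside 16.2% and 13.1% of all genes, and 2 were called without METTL5-KO replicate 2. The 4 were NR2F2 (0.47 ± 0.14, SE, adjusted p = 0.0155 in limma) beside PPARGC1A, and CEBPA (-1.13 ± 0.32, SE, adjusted p = 0.0133 in limma) and NR2F1 (-1.01 ± 0.15, SE, adjusted p = 0.000117 in limma). NR2F1 and NR2F2 are orphan receptors known to bind apolipoprotein promoters. In TE, RXRA (-0.84 ± 0.20, SE, adjusted p = 0.0234 in limma) and NR2F1 (-0.80 ± 0.21, SE, adjusted p = 0.0420 in limma) fell, beside 2.08% of genes called lower. Both calls were lost in each fit without 1 lysate, where the adjusted p-values ranged from 0.0684 to 0.189, and once the trend on coding GC content was removed (-0.52, limma adjusted p = 0.103 for RXRA and -0.45, limma adjusted p = 0.219 for NR2F1).

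**Figure D4:**
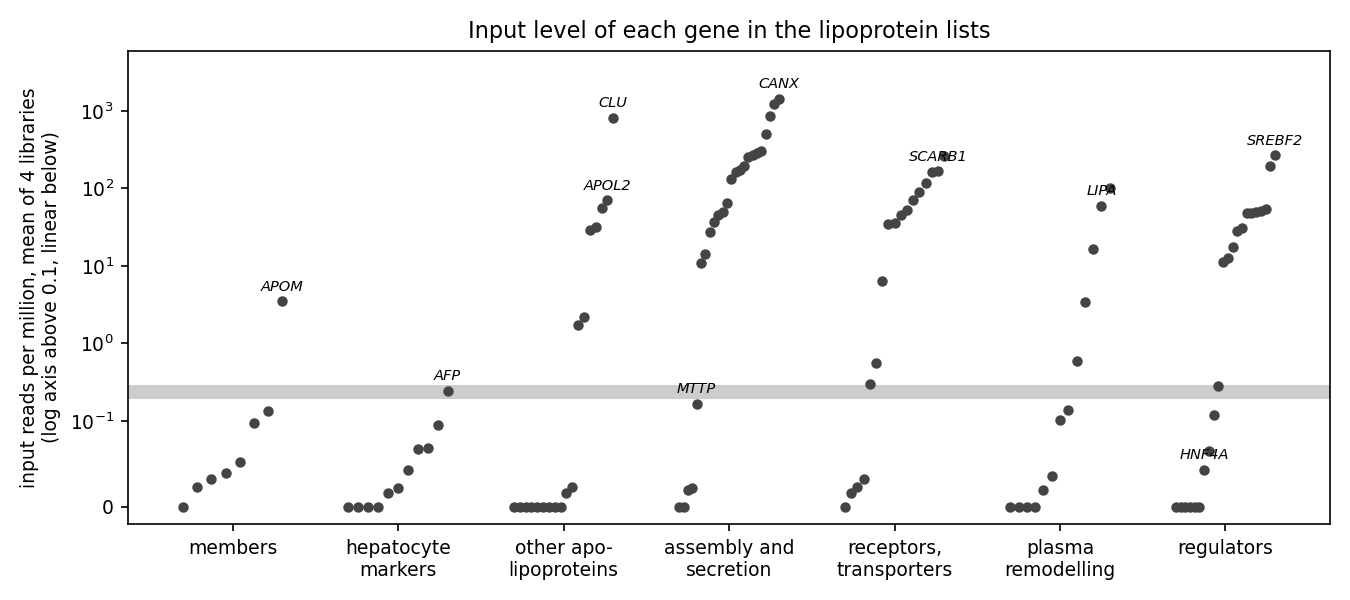
Input counts per 1000000, mean of 4 libraries (y axis, logarithmic above 0.1 and linear below), of every gene in 7 lists (x axis), each point 1 gene and the grey band the level of 3 counts per library. The members other than APOM, the hepatocyte markers and most other plasma apolipoproteins lie at or under the band or reach its height (AFP), while most assembly genes and receptors and part of the regulators lie far above it.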

How the data were processed

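Input RNA and ribosome-protected fragments were measured in 8 libraries. For input, the authors deposited raw read counts per gene, made by aligning reads to hg38 with STAR 2.7.3a and counting unique reads over exons by strand with featureCounts (version 1.6.0 per the labels). The authors made RPF values with the RiboToolkit server, and the deposited TE table holds signal values they name RPKM. Its values were whole reads times a constant per library (100% whole within 0.01 reads, 100% of input values equal to the counts), so the unit differed from the plan, and the planned test on log2(value + 1) was kept with count tests on the recovered reads beside it. The authors' own fold change, p-value and adjusted p-value columns were not used. For 1 gene broken over 3 lines of the count table, those lines were left out.

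The input test was the quasi-likelihood test of edgeR 4.0.16, with TMM factors and filterByExpr, and limma 3.58.1 was used for RPF and TE (eBayes, variance trend, means of at least 1 in each library type), TE as the interaction in a single model of 8 libraries. The log2(value + 1) scale understates changes of low genes. DESeq2 1.42.0, R 4.3.3 and Python 3.11.15 were also used. P-values were two-sided and Benjamini-Hochberg adjusted over all genes, with calls under 0.05. The scripts were tested on simulated data. Positions and lengths came from GENCODE release 44, and promoter windows and their letters from RefSeq on GRCh38.p14.

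The members, the lists and the tests were chosen with earlier results of these data known. Named genes were METTL5, the 8 members and, per list and comparison, the 2 largest rises and falls among called genes. Genes named besides these were chosen after their values were seen. Alternatives were other tools, pseudocounts, filters, scalings, a GC correction, blocks and leaving out replicates. Each lysate gave both an input and an RPF library, which pairs these by protocol (correlation of their deviations -0.02 in METTL5-WT and 0.05 in METTL5-KO). METTL5-WT and METTL5-KO shared replicate numbers, and whether they shared more is not given in the sources used here. At this depth 3 counts are 0.196 to 0.280 per 1000000 input counts. Intervals cover counting error only, since reads carried no molecular identifiers in the sources used here. Shares of the 8 members are of the count table total, since the planned total, the TE table genes, does not hold 7 of them. Some genes of the lists enter the counts but are not reported by name here, nor is a search for another motif.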

Additional observations from a re-analysis of the deposited data

How the results depend on the processing

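Called genes numbered 3149 in input, 3288 in RPF and 538 in TE. Leaving out 1 replicate gave 1220 to 5474 in input (1220 without METTL5-WT replicate 1, 1368 without METTL5-WT replicate 2, 5474 without METTL5-KO replicate 1), 1983 to 2773 in RPF and 4 to 265 in TE. In TE, limma called 1 gene with a single prior variance in place of the trend, and 269 after GC correction, while DESeq2 called 837. Here the cause was not tested, beyond fewer libraries in the fits that left one out. Of the TE calls, 56.5% were higher, against 42.2% with quantile normalization, 44.7% by edgeR and 20.4% with total count scaling, and of the RPF calls 55.3%, against 31.8% with total count scaling, which moved the median of all genes to -0.13 in RPF and -0.12 in TE on the log2 scale. The APOM RPF change ranged from 0.87 to 2.33 over fits without 1 lysate, and its call was kept under the 10 other limma settings and by edgeR and DESeq2. The APOM input and TE changes kept their direction and were not called under any alternative that gave an adjusted p. DESeq2 gave none for TE. The mean percentile of APOM in footprints per message was 15.1 in METTL5-WT and 49.0 in METTL5-KO, and 28.8 and 69.7 on the deposited values without lengths. Without METTL5-WT replicate 2 the TE change of APOL1 turned from -0.36 to 0.45 (-1.16 without METTL5-WT replicate 1), and without METTL5-WT replicate 1 that of APOL6 turned from -0.03 to 0.09 (-0.14 without METTL5-WT replicate 2). Besides the losses given above, leaving out either METTL5-WT replicate lost the input calls of CLU and DGAT1, METTL5-WT replicate 1 the RPF calls of HSPA5 and NR2F2, METTL5-KO replicate 2 that of NR2F2, and every library but METTL5-WT replicate 1 the RPF calls of SEC24D and CEBPA. DESeq2 did not call APOL1, APOL3, APOOL and GPLD1 in input.

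With a replicate block on the shared number, 3554 genes were called in input and 3513 in RPF. The correlation of same-numbered METTL5-WT and METTL5-KO libraries was 0.02 in input and 0.00 in RPF. It was also small for input and RPF libraries of the same lysate, at -0.02 in METTL5-WT and 0.05 in METTL5-KO. Those are paired by protocol, so this correlation cannot decide whether same-numbered libraries shared more than a number. With a replicate block on the lysate, 794 genes were called in TE, and 432 with the GC trend removed as well. No block changed an APOM call. The other 7 members had 0 to 4 counts, and no change of theirs was called. What size of change could have been called at such counts was not tested.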
